A study of Mus musculus with 4 samples.

Results

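Genes of mitosis and of the spindle were read on 4 whole-transcript arrays of sorted cells from the small intestine of mice aged 8 weeks. The list has 45 genes with roles from mitotic entry to cytokinesis, and a gene was included when an array feature named it and no other gene. That held for 44 of the 45, among 30786 genes in all, and each of the 44 had a single feature. Cyclin B1 (Ccnb1) had no such feature and is not analysed here. Each group is 1 array. The groups are Lgr5GFP+ stem cells with a mutated LncGata6, Lgr5GFP+ stem cells of Ehf-/- mice, Lgr5GFP+ stem cells of wild-type mice and Lgr5GFP- non-stem cells of wild-type mice, and the mice of every group carried GFP and CreERT2 at Lgr5. The LncGata6 locus makes a noncoding transcript beside the Gata6 gene. Ehf encodes a transcription factor of the ETS family that is found in epithelia. Comparisons of the mutants with wild-type stem cells ask what the loss of either gene changes in stem cells, and the comparison of stem with non-stem cells asks what sets stem cells apart. Without replicates no difference has an error or a test, and every statement below is a description of these 4 arrays. With 1 array per group, genotype and preparation cannot be told apart. The collection protocol in the labels calls the sort one of ILCreg cells, a name that none of the sample labels carries, and whether a sample came from 1 mouse or several is not stated in the sources used here.

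The division of a cell follows a fixed order. Cyclins A and B activate the kinase Cdk1, chromosomes are compacted by condensin and topoisomerase, kinesins and microtubule-binding proteins build the spindle, kinetochores attach chromosomes to it, the spindle checkpoint holds back the anaphase-promoting complex until attachment is complete, and the midzone then directs cytokinesis. Transcripts of these genes accumulate shortly before mitosis and are low in cells that have left the cycle, so their level in a tissue follows how many of its cells are dividing. In the intestinal crypt, stem cells and their transit-amplifying daughters divide rapidly, and Paneth cells and villus enterocytes do not. In a bulk sample, fewer dividing cells and less mitotic RNA per dividing cell cannot be told apart.

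Many of these genes share a promoter layout, which was chosen for display after the array values were seen. Whether it has a part in the differences between arrays was not tested. The cell cycle genes homology region (CHR), searched as TTTGAA or TTCGAA, is bound by the MuvB complex, which represses these genes in resting cells and activates them before mitosis together with B-Myb and Foxm1. CCAAT boxes, searched as CCAAT, are bound by NF-Y. Both motifs were searched on both strands. Neither contains the other, though adjoining matches can share an end base. RefSeq promoter windows of build GRCm38.p6, from position -250 to 50 around the annotated start, were found for 37 of the 44 members. The 7 without an entry were Ccna2, Cdc25c, Aurkb, Incenp, Kif20a, Tpx2 and Smc4. Within 50 bases of the start on either side, 27 of 37 members (73.0%) held a CHR, against 5.08% of 17491 protein-coding genes with a window and 6.12% of 27025 genes of all kinds. The first base of these matches lay from position -30 to 41, with a median at position 8 after the start. In the whole window 30 of 37 members (81.1%) held a CHR, against 20.2% of protein-coding genes, and 27 of 37 (73.0%) held a CCAAT box, against 42.3%. At least 2 CCAAT boxes were present in 18 members (48.6%), against 14.6% of protein-coding genes. A TATA box, searched as TATAAA, was present in 1 of 37 members (2.7%), against 14.8% of protein-coding genes. These matches are letters in a window and were not tested as binding sites.

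The 160 bases before the start are shown for 8 members, in the direction of the gene, with CHR and CCAAT matches of either strand in capitals. On the opposite strand a CHR reads TTCAAA and a CCAAT box reads ATTGG. Top2a, Ube2c, Kif11, Cdk1 and Cdc20 represent the members with a CHR just before the start, Mki67 has its CHR matches farther upstream, and Melk and Nek2 represent the members with no CHR.
Top2a (chr11:99024190-99024349, minus strand): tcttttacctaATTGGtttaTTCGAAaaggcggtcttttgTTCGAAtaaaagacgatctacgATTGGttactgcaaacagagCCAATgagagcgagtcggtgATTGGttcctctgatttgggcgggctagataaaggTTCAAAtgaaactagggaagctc
Ube2c (chr2:164769769-164769928, plus strand): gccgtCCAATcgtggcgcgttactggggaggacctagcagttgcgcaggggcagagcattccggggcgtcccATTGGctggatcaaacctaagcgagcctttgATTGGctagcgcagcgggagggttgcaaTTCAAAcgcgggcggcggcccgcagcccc
Kif11 (chr19:37376222-37376381, plus strand): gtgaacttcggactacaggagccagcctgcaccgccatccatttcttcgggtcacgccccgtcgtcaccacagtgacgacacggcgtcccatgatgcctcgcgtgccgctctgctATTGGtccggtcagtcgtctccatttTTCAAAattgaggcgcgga
Cdk1 (chr10:69352913-69353072, minus strand): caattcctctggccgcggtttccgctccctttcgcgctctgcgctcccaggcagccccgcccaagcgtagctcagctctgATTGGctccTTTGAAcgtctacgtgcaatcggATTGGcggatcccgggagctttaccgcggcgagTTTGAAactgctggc
Cdc20 (chr4:118437344-118437503, minus strand): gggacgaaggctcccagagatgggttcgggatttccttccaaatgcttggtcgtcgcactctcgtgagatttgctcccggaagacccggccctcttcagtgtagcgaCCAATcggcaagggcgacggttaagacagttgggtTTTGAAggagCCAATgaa
Mki67 (chr7:135716380-135716539, minus strand): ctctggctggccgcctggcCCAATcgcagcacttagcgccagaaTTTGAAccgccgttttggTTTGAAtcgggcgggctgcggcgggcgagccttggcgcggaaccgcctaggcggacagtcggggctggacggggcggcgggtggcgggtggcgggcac
Melk (chr4:44300757-44300916, plus strand): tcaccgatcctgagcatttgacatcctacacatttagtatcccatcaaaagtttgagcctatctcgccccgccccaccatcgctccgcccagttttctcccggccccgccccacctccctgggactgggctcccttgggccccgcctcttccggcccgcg
Nek2 (chr1:191821313-191821472, plus strand): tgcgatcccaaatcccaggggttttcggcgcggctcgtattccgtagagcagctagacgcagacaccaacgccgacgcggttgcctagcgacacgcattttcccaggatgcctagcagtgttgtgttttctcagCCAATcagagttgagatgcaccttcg
Positions are counted from the start, negative before it, and give the first base of a match in the direction of the gene. In Top2a the CHR nearest the start lay at -23 and the nearest CCAAT box upstream of it at -58. In Ube2c these lay at -29 and -57, in Kif11 at -19 and -45, in Cdk1 at -15 and -48 and in Cdc20 at -18 and -53. The CHR matches of Mki67 lay at -116 and -98. Nek2 held a CCAAT box at -26. The windows of Birc5, Mad2l1, Melk, Nuf2 and Nusap1 held neither motif.

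**Figure D1:**
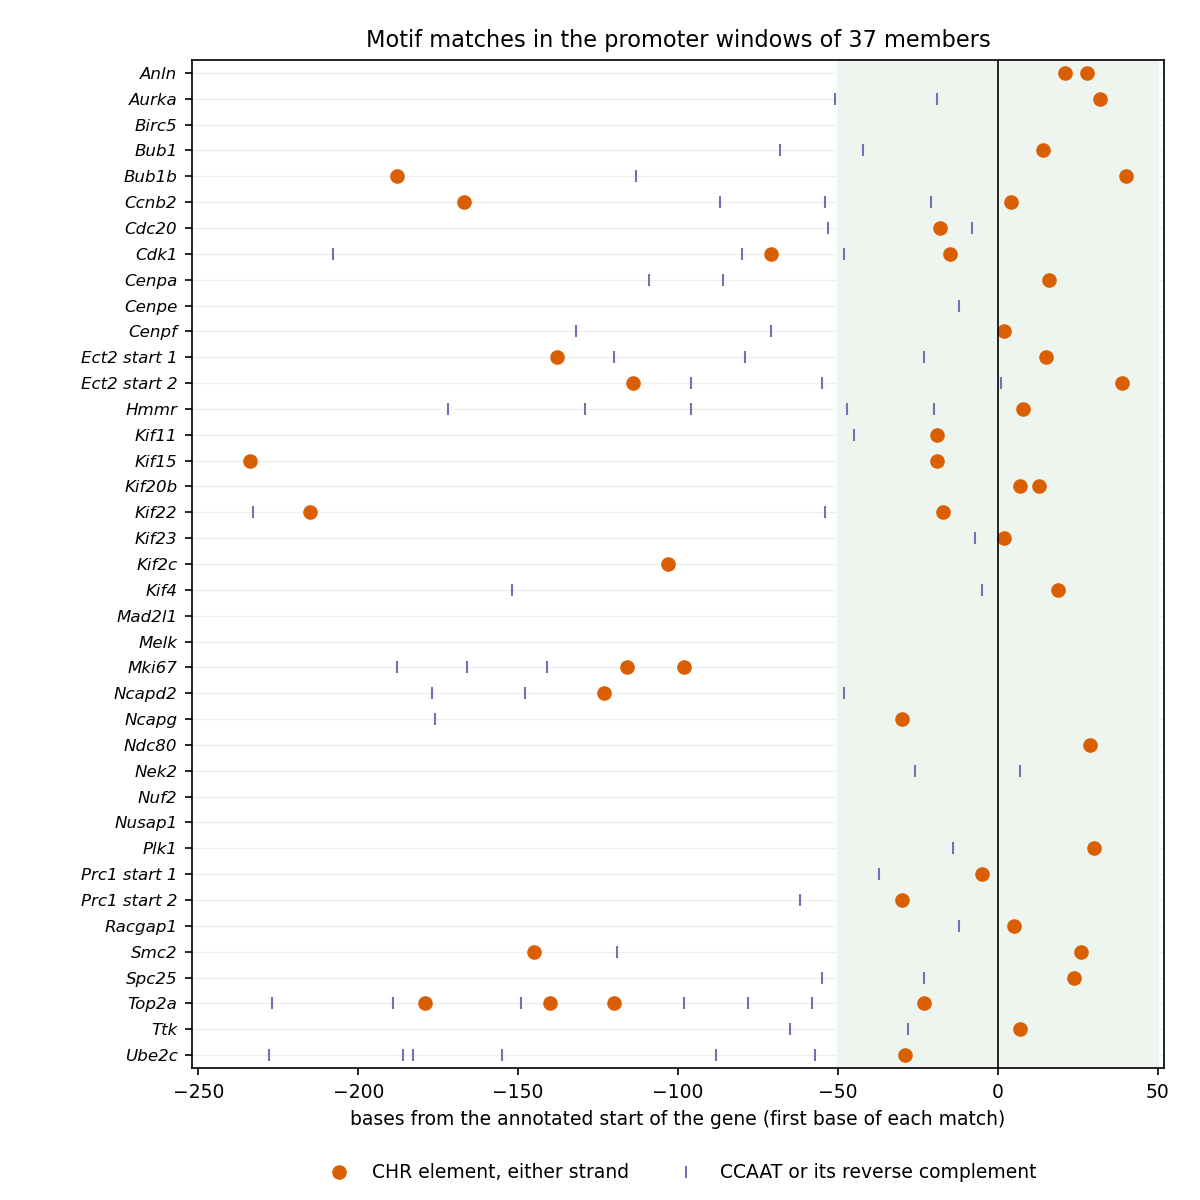
Distance in bases from the annotated start of the gene (x axis) of CHR matches (orange points) and CCAAT matches (purple ticks) in the promoter windows of 37 members, with 1 row per annotated start; the shaded band covers 50 bases on either side of the start. Orange points gather in the band, with 27 of 37 members holding at least 1 match there, while most purple ticks lie upstream of them.

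The arrays differed from each other in markers of cell types, and each result below stands beside these values. Lgr5, the receptor gene whose promoter drives the sorted GFP, read 3.03 in the LncGata6 mutant, 2.79 in the Ehf knockout, 9.41 in wild-type stem cells and 3.03 in non-stem cells. Ehf read 5.09 in the LncGata6 mutant, 3.03 in the Ehf knockout, 6.99 in wild-type stem cells and 3.75 in non-stem cells. Lgr5 was thus high on the wild-type stem array alone, although 3 of the 4 samples are labelled Lgr5GFP+, and Ehf was under the control limit on every array but that one. Gata6 read 7.62 in the LncGata6 mutant, 3.17 in the Ehf knockout, 7.21 in wild-type stem cells and 5.08 in non-stem cells. Its annotated opposite-strand transcript Gata6os, which was not matched to LncGata6 here, read 4.37 (LncGata6 mutant), 4.04 (Ehf knockout), 4.92 (wild-type stem) and 3.14 (non-stem), so that the mutated transcript itself was not checked. On the Ehf knockout array 0 of 14 general epithelial genes lay above the control limit (the 95th percentile of that array's negative control features), while 9 of 9 neutrophil, 7 of 7 macrophage, 5 of 7 granulocyte precursor and 5 of 9 red cell precursor genes did. The LncGata6 mutant array had 13 of 14 general epithelial, 11 of 11 enterocyte and 7 of 8 T cell and intraepithelial lymphocyte genes above its limit. On the wild-type stem array these were 14 of 14, 8 of 11 and 2 of 8. The non-stem array had 11 of 14 general epithelial genes above its limit, and also 6 of 6 liver and 7 of 7 kidney tubule genes, none of which passed on the other arrays. The part of these cell types in the results on mitotic genes was not tested. Arrays are named by their labels.

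**Figure D2:**
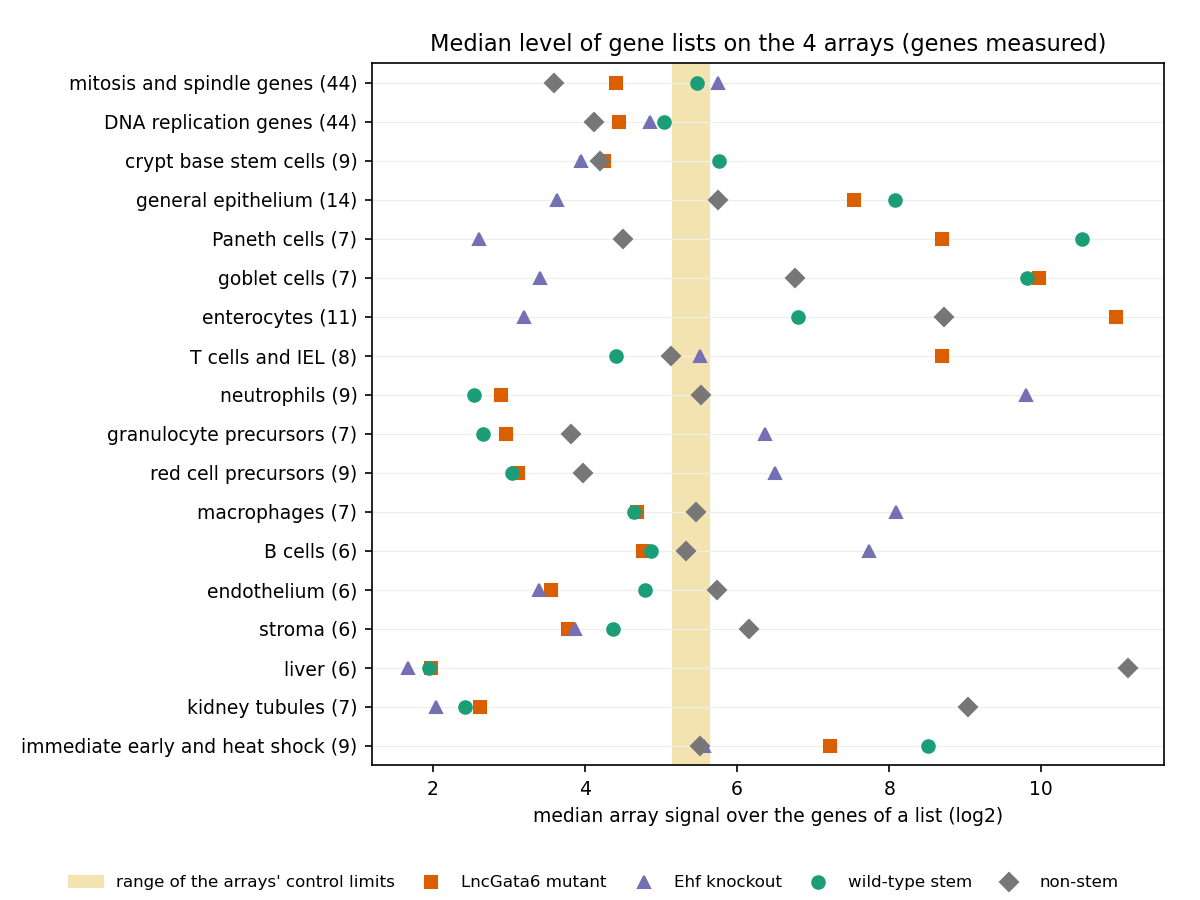
Median array signal (log2, x axis) over the measured genes of each list (rows, number of genes in brackets) on the 4 arrays, 1 point per array, with the range of the 4 control limits (5.16 to 5.62) shaded. The mitosis and spindle genes have nearly the same median on the Ehf knockout (5.74) and wild-type stem (5.47) arrays, although general epithelium and crypt base stem cell lists separate these arrays and the neutrophil and precursor lists lie highest on the Ehf knockout array.

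For most mitosis and spindle genes the same pair of arrays was lowest, while the order of the upper pair was split. Their median signal (log2) was 4.41 in the LncGata6 mutant, 5.74 in the Ehf knockout, 5.47 in wild-type stem cells and 3.60 in non-stem cells. The non-stem and LncGata6 mutant arrays were the lowest pair for 41 of 44 members, against 9.14% of all genes, and the exceptions were Nek2, Melk and Spc25. The LncGata6 mutant value lay between the non-stem and the wild-type stem value for 43 of 44 members, against 16.9% of all genes. The Ehf knockout array was highest, followed by wild-type stem, LncGata6 mutant and non-stem, for 23 of 44 members (52.3%), against 2.42% of all genes. The wild-type stem array was highest, followed by Ehf knockout, LncGata6 mutant and non-stem, for 18 members (40.9%), against 2.91% of all genes. Many members were dim, and the distance between values under a control limit is not a measured one. Of the 44, those above the control limit numbered 9 in the LncGata6 mutant, 30 in the Ehf knockout, 20 in wild-type stem cells and 2 in non-stem cells, the last being Mki67 and Ube2c.

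**Figure D3:**
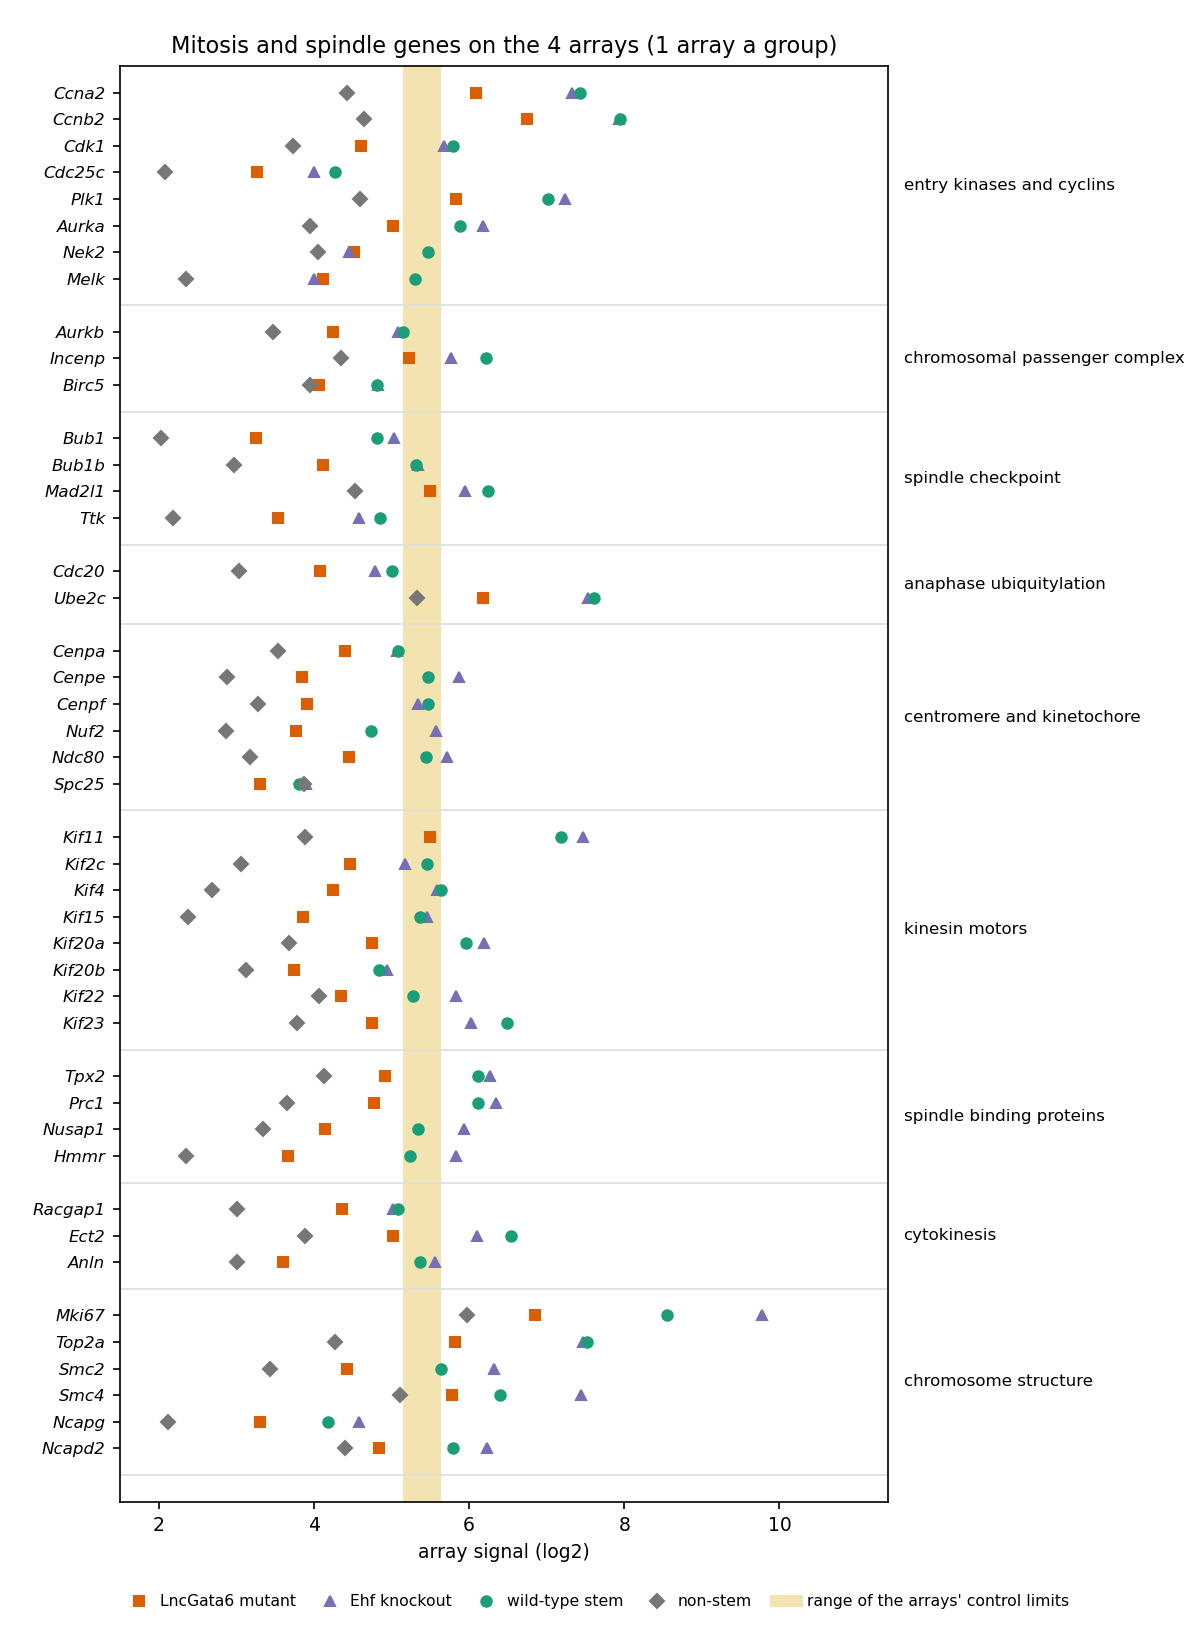
Array signal (log2, x axis) of each of the 44 members (rows, grouped by role) on the LncGata6 mutant (squares), Ehf knockout (triangles), wild-type stem (circles) and non-stem (diamonds) arrays, with the range of the control limits shaded. In nearly every row the diamond and the square lie left of the circle and the triangle, which mostly lie close together.

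On the LncGata6 mutant array every one of the 44 members read lower than on the wild-type stem array, by a median of -1.19 (log2). Of all genes 58.4% read lower, with a median of -0.06. The direction was shared with other genes of cell division, since 44 of 44 DNA replication genes and 119 of 134 further mitosis genes also read lower. A gene is called when its values differ by at least 1 (log2, 2-fold) and the brighter value reaches the 75th percentile of named features on its own array. That percentile was 4.93 on the LncGata6 mutant, 4.60 on the Ehf knockout, 4.97 on the wild-type stem and 5.26 on the non-stem array. By this rule 23 of 44 members were lower and 0 higher, where 3.01% of all genes were called lower and 2.81% higher. The count of lower members was 15 with the control limit as the brightness limit and 36 with a fold limit of 1.5. Another 4 members (Cdc25c, Bub1, Ttk and Kif20b) differed by at least 1 but were too dim on both arrays. The values closest to the limit were -1.004 for Cdc25c and -0.99 for Ndc80. Folds are given only where the brighter value exceeded its control limit, and as a bound where the dimmer did not, which left 9 measured folds and 11 bounds among the 44 members.

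Among the genes of mitotic entry, all 8 had lower values on the LncGata6 mutant array, and 5 were called. Cyclin A (Ccna2), which acts from replication into early mitosis, read 6.09 in the LncGata6 mutant, 7.32 in the Ehf knockout, 7.43 in wild-type stem cells and 4.43 in non-stem cells. Cyclin Ccnb2, a B-type partner of Cdk1, read 6.74 in the LncGata6 mutant, 7.93 in the Ehf knockout, 7.94 in wild-type stem cells and 4.65 in non-stem cells. The kinase Cdk1 itself, which drives entry, read 4.60 in the LncGata6 mutant, 5.68 in the Ehf knockout, 5.79 in wild-type stem cells and 3.73 in non-stem cells. All 3 were highest on the wild-type stem array, with the Ehf knockout array close to it. On the LncGata6 mutant array they were lower than on the wild-type stem array, Ccna2 by 2.53-fold, Ccnb2 by 2.30-fold and Cdk1 by at least 1.39-fold. The Polo-like kinase Plk1, which acts from entry to cytokinesis, read 5.83 in the LncGata6 mutant, 7.24 in the Ehf knockout, 7.02 in wild-type stem cells and 4.59 in non-stem cells. It was 2.28-fold lower on the LncGata6 mutant array. Aurora A (Aurka), a kinase of centrosome maturation, differed by -0.86, the phosphatase Cdc25c, which removes inhibitory phosphates from Cdk1, by -1.004, and the centrosomal kinase Nek2 by -0.96, none of them called. Melk, a kinase abundant in dividing progenitors, was called lower, at 4.12 on the LncGata6 mutant array against 5.30 on the wild-type stem array, both under the control limits.

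Among the 6 chromosome structure genes, 3 were called lower on the LncGata6 mutant array. Mki67, whose protein coats mitotic chromosomes and is the standard marker of proliferation, read 6.84 in the LncGata6 mutant, 9.78 in the Ehf knockout, 8.55 in wild-type stem cells and 5.97 in non-stem cells. The topoisomerase Top2a, which untangles sister chromatids, read 5.82 in the LncGata6 mutant, 7.47 in the Ehf knockout, 7.52 in wild-type stem cells and 4.27 in non-stem cells. Both were 3.26-fold lower on the LncGata6 mutant array than on the wild-type stem array. Smc2, an ATPase of the condensin core, was called lower (difference -1.22), while its partner Smc4 (-0.62) and the regulatory subunits Ncapg (-0.88) and Ncapd2 (-0.96) were not called.

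All 8 kinesin motors had lower values on the LncGata6 mutant array, and 5 were called. Kif11, the motor that pushes spindle poles apart, read 5.49 in the LncGata6 mutant, 7.47 in the Ehf knockout, 7.18 in wild-type stem cells and 3.89 in non-stem cells. It was 3.23-fold lower on the LncGata6 mutant array than on the wild-type stem array, the only kinesin above the limit on both. Kif23, the motor subunit of the midzone complex centralspindlin, read 4.74 in the LncGata6 mutant, 6.03 in the Ehf knockout, 6.48 in wild-type stem cells and 3.79 in non-stem cells and was at least 2.26-fold lower. Among the other called motors, the differences were -1.50 for Kif15, which backs up Kif11 in the spindle, -1.39 for the chromokinesin Kif4 and -1.22 for the midzone motor Kif20a. Kif15 read 3.86 (LncGata6 mutant), 5.46 (Ehf knockout), 5.36 (wild-type stem) and 2.37 (non-stem), and Kif4 read 4.24 (LncGata6 mutant), 5.58 (Ehf knockout), 5.63 (wild-type stem) and 2.69 (non-stem). In both the wild-type stem and Ehf knockout values lay close together. Kif20b (-1.10), the microtubule depolymerase Kif2c (-0.99) and the chromokinesin Kif22 (-0.92) were not called.

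The 4 spindle binding proteins were all called lower. Hmmr, a microtubule and centrosome protein, read 3.67 in the LncGata6 mutant, 5.83 in the Ehf knockout, 5.23 in wild-type stem cells and 2.36 in non-stem cells. Prc1, which bundles antiparallel microtubules of the midzone, read 4.77 in the LncGata6 mutant, 6.35 in the Ehf knockout, 6.11 in wild-type stem cells and 3.66 in non-stem cells. The differences between the LncGata6 mutant and the wild-type stem array were -1.57 for Hmmr and -1.34 for Prc1 on the log2 scale. Tpx2, which activates Aurora A on the spindle, and Nusap1, which stabilises spindle microtubules, both differed by -1.20. Nusap1 read 4.14 (LncGata6 mutant), 5.94 (Ehf knockout), 5.34 (wild-type stem) and 3.34 (non-stem).

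Genes of the kinetochore, checkpoint and passenger complex were mostly dim. Cenpe, a kinetochore motor, read 3.85 in the LncGata6 mutant, 5.87 in the Ehf knockout, 5.46 in wild-type stem cells and 2.88 in non-stem cells, and Cenpf, a large protein of the outer kinetochore, read 3.91 in the LncGata6 mutant, 5.34 in the Ehf knockout, 5.47 in wild-type stem cells and 3.27 in non-stem cells. Both were called lower on the LncGata6 mutant array, with differences of -1.62 and -1.56, but lay under the control limits on the LncGata6 mutant and wild-type stem arrays. The centromeric histone variant Cenpa (-0.69) and the Ndc80 complex subunits Ndc80 (-0.99), Nuf2 (-0.97) and Spc25 (-0.51) were not called. Spc25 read 3.30 (LncGata6 mutant), 3.89 (Ehf knockout), 3.81 (wild-type stem) and 3.87 (non-stem), under every control limit. Of the checkpoint genes only Bub1b, an inhibitor of Cdc20, was called, at 4.12 on the LncGata6 mutant array against 5.31 on the wild-type stem array. The checkpoint kinase Bub1 differed by -1.55, with 3.26 (LncGata6 mutant), 5.04 (Ehf knockout), 4.81 (wild-type stem) and 2.02 (non-stem). The kinase Ttk, which starts checkpoint signalling, differed by -1.31, with 3.53 (LncGata6 mutant), 4.58 (Ehf knockout), 4.85 (wild-type stem) and 2.19 (non-stem). Both were too dim to be called, and Mad2l1, which binds Cdc20, differed by -0.75. In the chromosomal passenger complex, which corrects faulty attachments, all 3 members were lower in value on the LncGata6 mutant array and none was called. Its kinase Aurkb read 4.24 (LncGata6 mutant), 5.08 (Ehf knockout), 5.15 (wild-type stem) and 3.48 (non-stem). Its scaffold Incenp read 5.22 (LncGata6 mutant), 5.77 (Ehf knockout), 6.21 (wild-type stem) and 4.35 (non-stem), and survivin (Birc5) read 4.07 (LncGata6 mutant), 4.83 (Ehf knockout), 4.81 (wild-type stem) and 3.95 (non-stem). Of the 3, Incenp was above the control limit on the Ehf knockout and wild-type stem arrays, and the others were under it on all 4.

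Anaphase and cytokinesis genes ended the sequence. Ube2c, the ubiquitin-conjugating enzyme of the anaphase-promoting complex, read 6.17 in the LncGata6 mutant, 7.53 in the Ehf knockout, 7.61 in wild-type stem cells and 5.33 in non-stem cells. It was 2.70-fold lower on the LncGata6 mutant array than on the wild-type stem array, while Cdc20, which activates that complex, differed by -0.93 and was not called. The Cdc20 values were 4.08 (LncGata6 mutant), 4.79 (Ehf knockout), 5.01 (wild-type stem) and 3.03 (non-stem). Ect2, the exchange factor that starts furrow formation, read 5.02 in the LncGata6 mutant, 6.10 in the Ehf knockout, 6.54 in wild-type stem cells and 3.89 in non-stem cells. Its value on the LncGata6 mutant array was at least 2.35-fold lower than on the wild-type stem array. Anillin (Anln), a scaffold of the furrow, was called lower, at 3.60 on the LncGata6 mutant array against 5.37 on the wild-type stem array, both under the control limits. It read 5.56 in the Ehf knockout and 3.01 in non-stem cells. Racgap1, the partner of Kif23 and activator of Ect2, differed by -0.72 and was not called. Its values were 4.37 (LncGata6 mutant), 5.01 (Ehf knockout), 5.09 (wild-type stem) and 3.005 (non-stem).

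Beside these differences, 5 of 9 crypt base stem cell genes, 7 of 7 Paneth cell genes and 5 of 9 immediate early and heat shock genes were also called lower on the LncGata6 mutant array than on the wild-type stem array. Enterocyte genes were called higher in 11 of 11 cases, by a median of 3.84, and T cell and intraepithelial lymphocyte genes in 7 of 8, by a median of 4.10. General epithelial genes had a median difference of -0.38, with 1 of 14 higher and 4 lower. The part of these shifts in the level of mitotic genes was not tested.

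**Figure D4:**
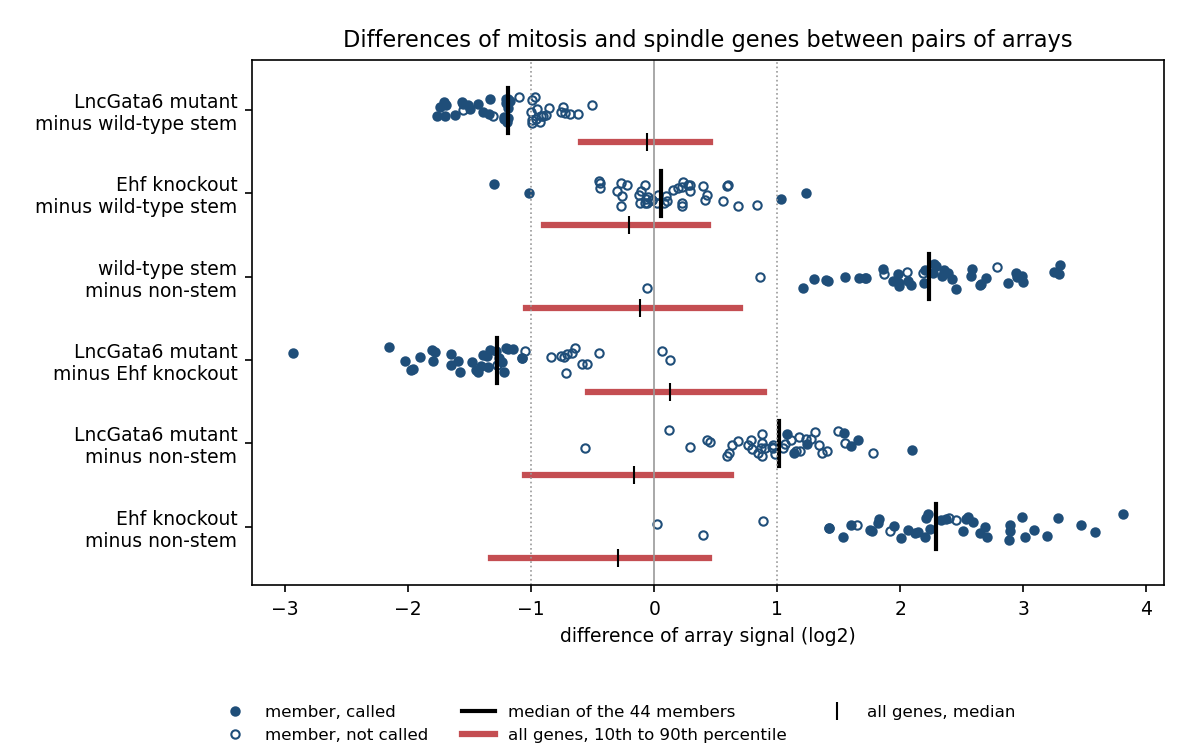
Difference of array signal (log2, x axis) of each of the 44 members in the 6 pairs of arrays (rows), filled where called and open where not; black bars are the members' medians, and the red bar and tick below each row give the 10th to 90th percentile and the median of all genes. Members are displaced as a group in every row but the Ehf knockout minus wild-type stem row, where their median is 0.06.

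Between the Ehf knockout and the wild-type stem array the members as a group hardly differed. The median difference was 0.06, with 24 members (54.5%) higher and 20 lower in value. Of all genes 31.3% were higher in value, with a median of -0.20. By the 2 limits 2 of 44 members were higher and 2 lower, where 2.59% of all genes were called higher and 5.29% lower, so the share of members called was near that of all genes. Within 0.5 (log2) of the wild-type stem value lay 35 of 44 members (79.5%), against 65.9% of all genes and 47.6% of the genes above the control limit on any array. The called members were Mki67 (2.35-fold higher), Smc4 (2.05-fold higher), Melk (difference -1.30) and Nek2 (-1.02). Melk and Nek2 lay under the control limits on both arrays. Nek2 lost its call under median centring (-0.84), quantile normalization (-0.66) and cyclic loess (-0.71), and Melk under quantile normalization (-0.97). Smc4 read 5.79 in the LncGata6 mutant, 7.44 in the Ehf knockout, 6.40 in wild-type stem cells and 5.10 in non-stem cells. Nek2 read 4.51 in the LncGata6 mutant, 4.45 in the Ehf knockout, 5.47 in wild-type stem cells and 4.06 in non-stem cells, and the Melk values were 4.12 (LncGata6 mutant), 3.995 (Ehf knockout), 5.30 (wild-type stem) and 2.34 (non-stem).

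The direction of small differences in this pair depended on the scaling. Centring each array on its median left 34 members higher and 10 lower in value, cyclic loess 37 and 7, and quantile normalization 39 and 5, with medians of 0.23, 0.33 and 0.38. The median of all genes, which was -0.20 as deposited, was -0.03, -0.01 and 0.004 under these scalings. All 4 condensin members were higher in value as deposited, with differences of 0.68 for Smc2, 0.40 for Ncapg and 0.43 for Ncapd2 beside Smc4. Nuf2 (0.84), the closest to the limit from below, Nusap1 (0.60) and Hmmr (0.59) were also higher in value, while Kif23 (-0.45), Incenp (-0.44) and Ect2 (-0.44) were lower. Nuf2 read 3.77 (LncGata6 mutant), 5.57 (Ehf knockout), 4.74 (wild-type stem) and 2.87 (non-stem), and Smc2 read 4.42 (LncGata6 mutant), 6.32 (Ehf knockout), 5.64 (wild-type stem) and 3.44 (non-stem). Of the 27 members with a CHR near the start, 0 were called in this pair, and their differences ran from -0.45 to 0.68. Of all genes 2.59% were called higher and 5.29% lower in this pair, so 0 of 27 was near that share. Mki67, Melk and Nek2 are among the 10 members with a window but no CHR there, and Smc4 has no window entry. In the LncGata6 mutant minus wild-type stem comparison the medians were -1.22 for the 27 members with a CHR near the start and -0.98 for the 10 without.

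These nearly equal levels stood on arrays with different cell markers. Relative to wild-type stem, the Ehf knockout array was called lower in 14 of 14 general epithelial genes (median -4.65), 7 of 7 Paneth cell genes, 5 of 9 crypt base stem cell genes and 9 of 9 immediate early and heat shock genes (median -2.69). It was called higher in 9 of 9 neutrophil genes (median 7.16), in 6 of 7 granulocyte precursor genes (4.22), in 5 of 9 red cell precursor genes (2.57), in 7 of 7 macrophage genes and in 4 of 6 B cell genes. Myeloperoxidase (Mpo), made by granulocyte precursors that still divide, read 2.96 in the LncGata6 mutant, 7.998 in the Ehf knockout, 3.03 in wild-type stem cells and 4.20 in non-stem cells. Neutrophil elastase (Elane), made at the same stage, read 2.73 in the LncGata6 mutant, 6.87 in the Ehf knockout, 2.65 in wild-type stem cells and 3.81 in non-stem cells. Rhag, a membrane protein of developing red cells, read 1.60 in the LncGata6 mutant, 6.49 in the Ehf knockout, 1.62 in wild-type stem cells and 3.55 in non-stem cells. These genes were above the control limit on the Ehf knockout array only. Which cells carried the mitotic transcripts on any array was not tested, and an equal level does not show that stem cells of the genotypes divide alike.

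In wild-type stem cells 36 of 44 members were higher and 0 lower than in non-stem cells, where 3.83% of all genes were called higher and 7.06% lower. With the control limit as the brightness limit 20 members were higher. The median difference was 2.23, against -0.11 for all genes. For members above the control limit on the wild-type stem array alone, the fold is a bound. It was at least 6.90-fold for Ccnb2, at least 5.15-fold for Top2a, at least 4.82-fold for Ccna2 and at least 4.06-fold for Kif11. Of the 36 called members 16, Kif15 among them, were under the limit on both arrays and have no fold. Mki67 and Ube2c, the only members above the limit on the non-stem array, were 5.97-fold and 4.85-fold higher on the wild-type stem array. Of the members not called, Cdc25c, Bub1, Ttk, Nuf2, Kif20b and Ncapg differed by at least 1 but were too dim, Birc5 differed by 0.86 and Spc25 by -0.06. The value closest to the limit from above was 1.21, for Kif22. In the same comparison 13 of 14 general epithelial genes (median 2.14) and 9 of 9 immediate early and heat shock genes (3.19) were called higher on the wild-type stem array, while 6 of 6 liver genes (-9.36) and 7 of 7 kidney tubule genes (-6.89) were called lower. Paneth cell genes were called higher in 7 of 7 cases (median 6.03) and goblet cell genes in 6 of 7 (2.52). So were 5 of 9 crypt base stem cell genes (1.73). Enterocyte genes were called lower in 6 of 11 cases and higher in 1. Stromal genes were called lower in 5 of 6 cases and neutrophil genes in 5 of 9. Lists thus moved both with the mitotic genes and against them, and their part in the difference was not tested.

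The mutant arrays were also set against each other and against the non-stem array. All of these pairs share arrays with the comparisons above and are not independent of them. The LncGata6 mutant array was lower than the Ehf knockout array in 30 of 44 members and higher in 0, where 3.46% of all genes were called lower and 6.16% higher, with a median of -1.28. Mki67 was 7.64-fold, Kif11 3.95-fold, Smc4 3.14-fold and Top2a 3.14-fold lower on the LncGata6 mutant array, all above the limits on both arrays. Melk and Nek2, under the limits on both, differed by 0.13 and 0.06. The LncGata6 mutant had 7 of 44 members higher and 0 lower than non-stem cells, where 3.66% of all genes were called higher and 6.85% lower. These were Ccna2, Ccnb2, Plk1, Aurka, Kif11, Ect2 and Top2a. The count was 11 under quantile normalization and under cyclic loess, 12 with a fold limit of 1.5 and 5 with the control limit as the brightness limit. Another 15 members differed by at least 1 in that pair but were too dim. The Ehf knockout had 37 of 44 members higher and 0 lower than non-stem cells, where 3.0% of all genes were called higher and 9.81% lower. Mki67 was 14.0-fold and Ube2c 4.61-fold higher, and Kif11 was at least 4.96-fold higher.

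Genes of cell division outside the list were described in the same way. Of 134 further mitosis genes (kinetochore, spindle, cytokinesis, condensin and cohesin, anaphase-promoting complex and mitotic entry), 6 were lower in the LncGata6 mutant than in wild-type stem cells and 0 were higher (median -0.46). The lower share, 4.48%, was near the 3.01% of all genes. In the Ehf knockout 2 (1.49%) were higher and 4 (2.99%) lower than in wild-type stem cells (median -0.12), against 2.59% and 5.29% of all genes. In wild-type stem cells 24 (17.9%) were higher than in non-stem cells and 0 lower (median 0.75), against 3.83% and 7.06% of all genes. The 6 genes lower on the LncGata6 mutant array were Stil, a centriole assembly protein (-2.58), Shcbp1, a midbody protein (-1.97), Cep55, which recruits the abscission machinery (-1.43), Tacc3 (-1.09) and Dlgap5 (-1.04), both of spindle microtubules, and the cohesin subunit Smc3 (-1.06). Stil read 3.22 in the LncGata6 mutant, 4.75 in the Ehf knockout, 5.80 in wild-type stem cells and 2.09 in non-stem cells. None of the 17 genes of the anaphase-promoting complex and its regulators was called in the LncGata6 mutant minus wild-type stem, Ehf knockout minus wild-type stem or wild-type stem minus non-stem comparison, and their medians in these pairs were -0.25, -0.20 and -0.17. Of all genes 2.59% to 3.83% were called higher and 3.01% to 7.06% lower in these pairs, so 0 of 17 was near that share. In the LncGata6 mutant 2 of the 17 (11.8%) were lower than in the Ehf knockout, against 3.46% of all genes. Compared with non-stem cells, 2 (11.8%) were lower in the LncGata6 mutant, against 6.85%. In the Ehf knockout 1 (5.88%) was higher and 3 (17.6%) lower than in non-stem cells, against 3.0% and 9.81%. Core subunits of the anaphase-promoting complex are expressed throughout the cell cycle.

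DNA replication genes, whose transcripts peak before those of mitotic genes, formed another list. Of 44 measured, 7 were lower in the LncGata6 mutant than in wild-type stem cells and 0 were higher (median -0.61), a share of 15.9% against 3.01% of all genes. Among them were the polymerase subunit Pola1 (-1.56), the ribonucleotide reductase subunit Rrm1 (-1.25) and the clamp loader subunit Rfc4 (-1.20). On the Ehf knockout array 2 (4.55%) were higher than on the wild-type stem array and 0 lower, against 2.59% and 5.29% of all genes. The higher genes were Rrm2 (2.29) and Mcm5 (1.08), and the median over the list was 0.03. On the wild-type stem array 17 (38.6%) were higher than on the non-stem array (median 1.09), against 3.83% of all genes.

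Of 20 measured transcription regulators of these genes, including MuvB, E2F, retinoblastoma family and NF-Y genes, 2 were higher and 2 lower in the LncGata6 mutant than in wild-type stem cells. These are 10.0% each way, against 2.81% of all genes called higher and 3.01% lower. The higher pair was Rb1 (1.01) and Rbl2 (1.37), which repress cell cycle genes in resting cells. The lower pair was E2f8 (-1.13), an atypical E2F that rises in cycling cells, and Tfdp1 (-1.01), the dimer partner of E2F proteins. Rb1 and Tfdp1 passed the fold limit only narrowly. Over the 20 genes 9 were higher and 11 (55.0%) lower in value (median -0.25), against 58.4% of all genes lower. The part of these regulators in the level of mitotic genes was not tested. On the Ehf knockout array only E2f2 was called (5.0%, against 2.59% of all genes higher), at 5.88 against 4.74 on the wild-type stem array. B-Myb (Mybl2) read 4.004 (LncGata6 mutant), 4.80 (Ehf knockout), 4.26 (wild-type stem) and 3.66 (non-stem), under every control limit, and Foxm1 had no feature that named it alone. Of 7 inhibitors of cyclin-dependent kinases, 0 were called in the LncGata6 mutant relative to wild-type stem cells. With 2.81% of all genes called higher and 3.01% lower in that pair, 0 of 7 was near that share. Compared with wild-type stem cells, the Ehf knockout had lower calls for Cdkn1a and Cdkn2b, 28.6% of the 7 against 5.29% of all genes. Cdkn2b lay under the control limits on both arrays, so its difference is not a measured one. Cdkn1a, which halts the cycle downstream of p53, read 8.87 in the LncGata6 mutant, 4.53 in the Ehf knockout, 8.05 in wild-type stem cells and 6.24 in non-stem cells.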

How the data were processed

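RNA of 4 samples, 1 per group, was hybridised to Clariom D mouse arrays. The deposited table holds log2 signals, 1 per feature and array. The submitters' processing notes name RMA and Affymetrix Power Tools without versions. RMA compresses differences of dim features. Deposited values between -0.183 and 13.132 fit a log2 scale, and the array medians were 2.55 (LncGata6 mutant), 2.51 (Ehf knockout), 2.60 (wild-type stem) and 2.64 (non-stem). Centring beyond RMA is not given in the sources used here. Of 72688 features, 31261 named 1 gene after older symbols were updated through RefSeq, 1489 named several and were left out, and the others are unnamed here. For a gene with several features the highest mean was used, giving 30786 genes.

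Arrays were compared by subtracting log2 values, without a test. Control limits are the 95th percentile of 5222 negative control features (5.31 LncGata6 mutant, 5.19 Ehf knockout, 5.62 wild-type stem, 5.16 non-stem). The number of arrays limits the precision. Members, lists and limits were chosen with earlier results of these data known. Values on every array are given for the 2 members of each role group with the largest LncGata6 mutant minus wild-type stem difference (all in groups of up to 3). They are also given for Mki67, Top2a and Cdk1, and for members with the 5 largest positive or 5 largest negative differences in a comparison. Others were chosen after their values were seen (Plk1, Stil, Mpo, Elane, Rhag, Mybl2 and Cdkn1a). The promoter motifs were also chosen after values were seen. The calling rule was run on simulated data with a chosen noise and changes planted in bright features only. That run checks the code and does not measure the error of these arrays. Alternatives were median centring, quantile normalization and cyclic loess (limma 3.58.1 in R 4.3.3), the median of features, the control limit as brightness limit and a fold limit of 1.5. Other steps used Python 3.11.15 and pandas 2.3.3.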

Additional observations from a re-analysis of the deposited data

How the results depend on the processing

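All 44 members stayed lower on the LncGata6 mutant than on the wild-type stem array under median centring, quantile normalization and cyclic loess. No called member changed sign under these scalings in any comparison. The median of features, the control limit and the fold limit of 1.5 leave the members' values unchanged, so they could not change a sign. Over all called members, comparisons and alternatives, the call was kept 780 times and lost 42 times. The kept calls include every call under the median of features and under the fold limit of 1.5, which could not lose a call. With the control limit as brightness limit, 15 members rather than 23 were lower on the LncGata6 mutant array, 20 rather than 36 higher on the wild-type stem than on the non-stem array, and 0 rather than 2 lower on the Ehf knockout than on the wild-type stem array, because members between the 2 limits drop out. A fold limit of 1.5 gave 36 lower members on the LncGata6 mutant array, 6 higher on the Ehf knockout array and 12 rather than 7 higher on the LncGata6 mutant than on the non-stem array. The last count was 11 under quantile normalization and under cyclic loess. Between the Ehf knockout and wild-type stem arrays, median centring left 1 member lower, cyclic loess 4 higher and 1 lower, and quantile normalization 4 higher and 0 lower. The median of features changed no count, since each member has 1 feature. No paired analysis was possible because each group has 1 array, and for the same reason no array could be left out. Members under the control limits on both arrays of a pair, 24 of 44 between the LncGata6 mutant and wild-type stem arrays, have no fold.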

Other observations

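Protein-coding genes outside the list that hold a CHR within 50 bases of the start were looked at in the same comparisons. Of 764 such genes, 2.88% were called lower on the LncGata6 mutant array than on the wild-type stem array, against 2.34% of the 14775 coding genes without one, and 4.32% were called higher, against 3.97%. The medians were -0.09 and -0.03. On the Ehf knockout array 3.27% of the 764 genes were called higher than on the wild-type stem array, against 3.17% of the 14775. In the same pair 5.63% of the 764 were called lower, against 7.14%. On the wild-type stem array 4.71% of the 764 genes were called higher than on the non-stem array, against 3.35% of the 14775, and 7.85% lower, against 9.56%. Most of these coding genes were uncalled whether or not they held the motif. A CHR in the same window was present in 10 of 32 other kinetochore genes, 9 of 27 other spindle and kinesin genes, 7 of 15 other mitotic entry genes and 4 of 36 DNA replication genes. This comparison was chosen after the data were seen and carries no test.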
